A study of Homo sapiens with 12 samples.

Results

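The E2F and retinoblastoma gene family was analysed in SU-DHL-4, an established diffuse large B-cell lymphoma line of the germinal centre B-cell type. The 10 genes E2F1 to E2F8, RB1 and RBL1 were found by their symbols among the 46863 genes of the count table, and all 10 passed the filter on low counts that left 16835 genes for testing. The cells, labelled as wild type, were exposed for 72 h to DMSO as the vehicle, to 1 µM of the SYK inhibitor Entospletinib (Ento), to 0.01 µM of the bivalent BET inhibitor AZD5153 (AZD), or to both at these concentrations (Ento+AZD). Each group held 3 libraries, numbered 1 to 3. No group carried a genetic change made by the study, and a single cell line is the whole model.

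E2F proteins bind DNA as pairs with a DP protein and set the level of genes needed for DNA synthesis. E2F1, E2F2 and E2F3 are known as activators, E2F4, E2F5 and E2F6 as repressors, and the atypical E2F7 and E2F8 bind without a DP partner and repress. The pocket proteins RB1 and RBL1 (p107) hold E2Fs inactive in G1, until cyclin-dependent kinases phosphorylate them and release the E2Fs at entry into S phase. BET proteins read acetylated histones at active genes, and SYK carries the signal of the B-cell receptor.

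Total counts lay between 18121993 and 24675830 per library, at which 1 count was worth 0.0393 to 0.0564 CPM (counts scaled to a common library size). Markers of the labelled B-cell type were present, with MS4A1 (CD20) between 1700 and 3660 CPM and BCL6 between 616 and 1000 CPM. Of 10 markers of other cells, CD3D and CD2 had no count in any library, CD14, LYZ, EPCAM, COL1A1 and MSLN had at most 5, and CD3E, NKG7 and PECAM1 had more. The summed level of these 10 ran from 19.6 to 48.1 CPM with DMSO, from 37.7 to 88.0 CPM with Ento, from 13.2 to 52.0 CPM with AZD and from 39.0 to 90.9 CPM with Ento+AZD. PECAM1 alone, at 11.5 to 87.3 CPM, made up most of this sum, and the other 9 genes summed to 1.69 to 4.37 CPM over all libraries. The ribosomal RNA RNR2 took 1.55 to 1.83% of counts with DMSO, 1.65 to 2.09% with Ento, 1.57 to 2.07% with AZD and 2.15 to 2.56% with Ento+AZD, so that the Ento+AZD and DMSO groups did not overlap. The part of these markers and of RNR2 in the results was not tested. The exposed libraries numbered 2 stood apart from the others in cell cycle genes relative to DMSO. Results are therefore also given without the 4 libraries numbered 2, a choice made after the data were seen.

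Between genes, levels were compared as CPM per kilobase of exon. In the DMSO libraries RB1 had the highest level with 42.9 ± 2.87 CPM per kb (SD, n = 3), and the activator E2F1 came next with 40.5 ± 6.58. E2F4, the main repressor, reached 25.0 ± 5.28 CPM per kb, and the activator E2F2 20.7 ± 5.62. E2F5 stood at 10.3 ± 1.32, E2F3 at 8.11 ± 0.687, RBL1 at 7.55 ± 0.266 and E2F8 at 6.09 ± 1.82 CPM per kb. E2F6, a repressor that acts in the Polycomb complex PRC1.6, and E2F7 were lowest, with 2.38 ± 0.0212 and 2.01 ± 0.584 CPM per kb. The ranges of neighbours in this order overlapped except between E2F1 and E2F4, between E2F2 and E2F5, and between E2F8 and E2F6. Per kilobase of coding sequence RB1 stayed first, but E2F2 moved from rank 4 to rank 2 and E2F6 from rank 9 to rank 8.

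Promoter sequences of RefSeq (GRCh38.p14) were matched for 8 of the 10 genes. E2F5 and E2F8 had no entry. For RB1 the entry started 172706 bases inside the gene and was not used, and for E2F3 the entry at the gene's annotated start was taken. They are shown because 4 of the genes below, E2F1, E2F2, E2F7 and RBL1, fell together and E2F3 rose. Each line gives the 100 bases before the start site, 5′ to 3′ on the strand of the gene, with the motifs in capitals.
E2F1: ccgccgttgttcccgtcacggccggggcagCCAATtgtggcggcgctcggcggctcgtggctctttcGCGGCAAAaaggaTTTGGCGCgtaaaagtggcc
E2F2: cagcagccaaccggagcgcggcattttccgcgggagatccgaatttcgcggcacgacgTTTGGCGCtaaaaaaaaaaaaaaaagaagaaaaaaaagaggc
RBL1: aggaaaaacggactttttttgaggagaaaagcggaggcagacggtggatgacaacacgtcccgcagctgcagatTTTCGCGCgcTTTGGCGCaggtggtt
E2F7: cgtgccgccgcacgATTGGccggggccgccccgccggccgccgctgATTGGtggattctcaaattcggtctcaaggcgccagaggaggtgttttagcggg
E2F3: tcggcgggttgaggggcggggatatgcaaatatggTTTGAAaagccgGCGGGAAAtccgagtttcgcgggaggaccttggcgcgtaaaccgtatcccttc

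They lie at chr20:33686386-33686485 for E2F1, chr1:23531234-23531333 for E2F2, chr20:37095998-37096097 for RBL1 and chr12:77065570-77065669 for E2F7, all on the minus strand, and at chr6:20401779-20401878 on the plus strand for E2F3. The motifs searched, on both strands, were the E2F octamers TTTCCCGC, TTTCGCGC, TTTGCCGC and TTTGGCGC, the NF-Y box CCAAT and the cell cycle homology regions TTTGAA and TTCGAA. In the full window of the table, from 250 bases before to 50 bases after the start, an E2F octamer stood in E2F1 and RBL1 with 2 matches each and in E2F2 and E2F3 with 1 each. E2F4, E2F6 and E2F7 held no E2F octamer. Such an octamer stood in 3.3% of 34796 promoters of the same length, a CCAAT box in 34.6% and a cell cycle homology region in 16.4%. CCAAT boxes numbered 3 in E2F1, 4 in E2F3 and 4 in E2F7, and E2F3 had the 1 cell cycle homology region among these genes. The octamers of E2F1 began 33 bases (GCGGCAAA, read on the opposite strand) and 20 bases before the start. These matches describe letters only and show no binding.

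The combined exposure was compared with DMSO to find how the family stood under inhibition of both targets. Of the 10 genes, 5 fell and 2 rose at an adjusted p under 0.05 (edgeR quasi-likelihood test, Benjamini-Hochberg over all 16835 genes), where 20.8% of all genes tested fell and 19.2% rose. The 5 that fell were the activators E2F1 and E2F2, the atypical E2F7 and E2F8, and the pocket protein RBL1. The 2 that rose were the activator E2F3 and the repressor E2F4, while E2F5, E2F6 and RB1 did not pass. In bulk RNA, fewer cells in a phase of the cycle and less RNA per cell cannot be told apart. With a log2 fold change of over 1 required as well, E2F2, E2F7 and E2F8 fell, 3 of 10 against 4.89% of all genes. The median log2 fold change was −0.49 over the 10 genes and 0.01 over all.

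E2F2 (chromosome 1, 23506438 to 23531233), whose promoter holds 1 octamer, stood at 92.0, 98.7 and 148 CPM in DMSO replicates 1, 2 and 3, and at 37.9, 10.7 and 44.3 CPM in the Ento+AZD replicates. Every exposed library lay below every DMSO library. The log2 fold change was −2.05 (SE 0.24, adjusted p = 2.82e-05).

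E2F8 (chromosome 11, 19224063 to 19241620), which represses E2F1 in late S phase, was at 19.3, 22.5 and 33.7 CPM with DMSO and at 5.92, 1.86 and 10.5 CPM with Ento+AZD, with no overlap. Its lowest library, Ento+AZD replicate 2, held 39 counts of it. The fit gave a 95% confidence interval of the log2 fold change from −2.78 to −1.62. E2F7, its partner in that repression, fell from 11.7, 9.48 and 16.7 CPM to 5.67, 2.38 and 8.35 CPM, again without overlap (log2 fold change −1.29, SE 0.19, adjusted p = 0.000164).

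RBL1 (chromosome 20, 36996349 to 37095997) was tight within the groups, with 43.3, 45.0 and 46.5 CPM with DMSO and 23.9, 21.3 and 29.1 CPM with Ento+AZD. Its decrease was smaller than that of E2F2 and E2F8, but had the smallest adjusted p of the 10 genes (log2 fold change −0.87, SE 0.09, adjusted p = 1.33e-05). E2F1 fell from 93.2, 105 and 128 CPM to 78.4, 49.7 and 83.4 CPM without overlap (log2 fold change −0.67, SE 0.14, adjusted p = 0.00156).

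**Figure D1:**
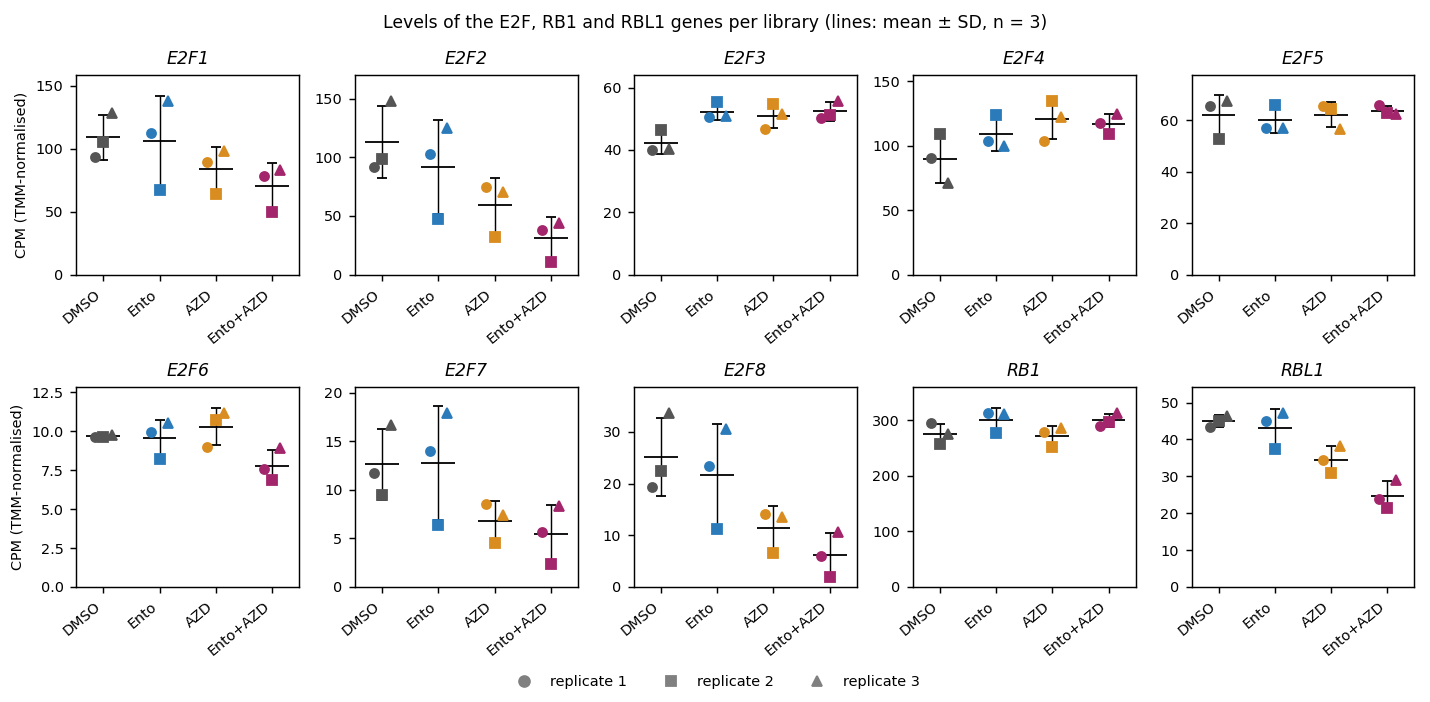
Levels of the 10 genes in CPM (vertical axes, from 0, one scale per gene) in the 4 groups (horizontal axes), with a point per library shaped by its replicate number and lines for the mean and SD of 3 libraries. E2F2, E2F7, E2F8 and RBL1 stepped down with AZD and Ento+AZD, replicate 2 was the lowest exposed library for E2F1, E2F2, E2F7 and E2F8, and RB1 stayed between 252 and 314 CPM throughout.

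E2F3 rose from 39.9, 46.2 and 40.2 CPM to 50.1, 51.1 and 55.8 CPM, with no overlap between the groups (log2 fold change 0.32, SE 0.08, adjusted p = 0.00624). E2F4 went from 90.1, 109 and 70.9 CPM to 117, 109 and 125 CPM, where the groups overlapped by the libraries numbered 2 and the log2 fold change was 0.40 (SE 0.12, adjusted p = 0.0161). Both calls rested on few libraries. Without Ento+AZD replicate 3 the adjusted p was 0.0583 for E2F3 and 0.115 for E2F4, and E2F4 was also lost without DMSO replicate 3 (0.0916) or Ento+AZD replicate 1 (0.0738).

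The remaining genes did not pass the test. RB1 stood at 295, 258 and 275 CPM with DMSO and at 289, 297 and 314 CPM with Ento+AZD, and the 95% confidence interval of its log2 fold change ran from −0.02 to 0.27. E2F5 had an interval from −0.18 to 0.26. E2F6 was at 9.66, 9.62 and 9.78 CPM against 7.58, 6.86 and 8.91 CPM, so that its groups did not overlap, but its adjusted p was 0.0549 (log2 fold change −0.32, SE 0.13), and 0.0397 without DMSO replicate 3, 0.049 without AZD replicate 1 or 0.0254 with scaling by library size alone. In all, 6 of the 10 genes had every Ento+AZD library below every DMSO library, against 20% of all genes, and 1 had every library above, against 19.1%. E2F6 is uncertain, since its pseudogenes E2F6P1, E2F6P2 and E2F6P3 were counted at 17.2%, 10% and 7.7% of its counts. E2F5 is uncertain too, since it shares up to 584 exonic bases with RBIS on the opposite strand and the use of strand in the counting is not given in the sources used here. E2F8 shares 7 bases with CSRP3-AS1, which had at most 2 counts.

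**Figure D2:**
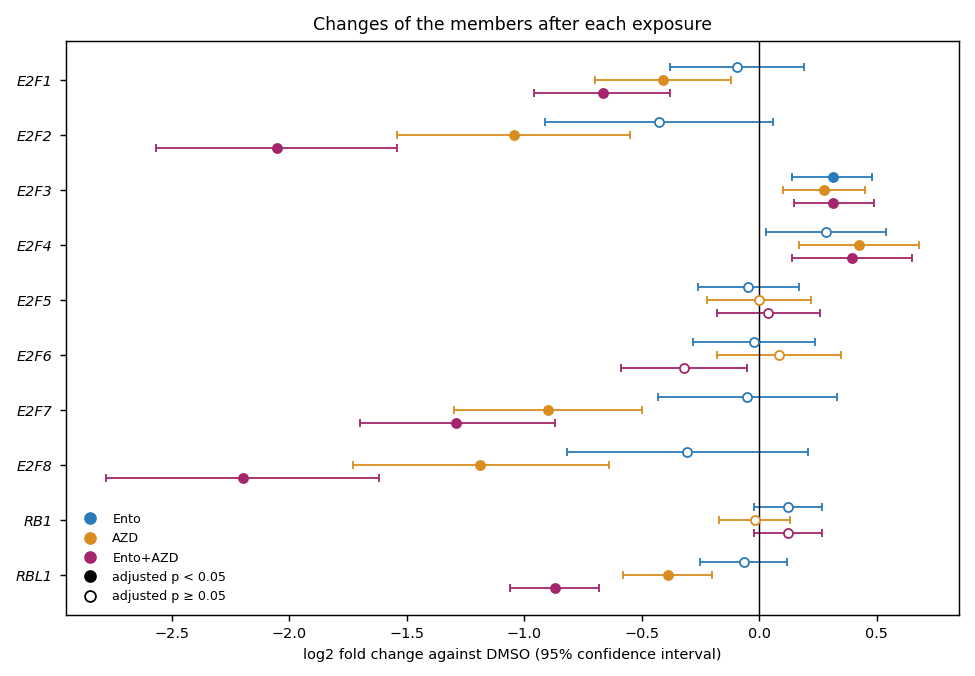
Log2 fold changes against DMSO (horizontal axis) of the 10 genes for Ento, AZD and Ento+AZD, with 95% confidence intervals and filled points where the adjusted p was under 0.05. E2F2 and E2F8 reached −2.05 and −2.20 with Ento+AZD, E2F3 and E2F4 lay right of 0 under every exposure, and only E2F3 was filled for Ento.

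The AZD single agent exposure was compared with the same DMSO libraries, so its values are not independent of those above. The same 5 genes fell and the same 2 rose, where 12.7% of all genes fell and 9.57% rose. Of all genes called 57% fell, or 70.4% when libraries were scaled by their size alone. E2F2 was at 74.8, 32.1 and 70.1 CPM with AZD (log2 fold change −1.04, SE 0.23, adjusted p = 0.00671), and E2F8 at 14.2, 6.63 and 13.5 CPM (log2 fold change −1.19, SE 0.25, adjusted p = 0.00562). E2F7 was at 8.51, 4.49 and 7.40 CPM (log2 fold change −0.90, SE 0.19, adjusted p = 0.00496), and RBL1 at 34.3, 30.9 and 38.2 CPM (log2 fold change −0.39, SE 0.09, adjusted p = 0.00741). For these 4 genes every AZD library lay below every DMSO library, which held for 12.7% of all genes.

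E2F1 was at 89.3, 63.8 and 98.1 CPM with AZD and overlapped the DMSO group (log2 fold change −0.41, SE 0.13, adjusted p = 0.0424). It passed in 10 of 20 settings. Leaving out DMSO replicate 2 or 3, Ento replicate 1, Ento+AZD replicate 1 or 3 or any AZD replicate ended the call, with adjusted p from 0.051 to 0.245. E2F3 and E2F4 rose by 0.28 and 0.43 on the log2 scale (adjusted p = 0.0246 and 0.0202). E2F4 lost its call without AZD replicate 2 (adjusted p = 0.0872), AZD replicate 3 (0.115) or DMSO replicate 3 (0.0947), and E2F3 without the same 3 libraries (0.112, 0.107 and 0.0812) or DMSO replicate 1 (0.0505). E2F7 was lost without AZD replicate 3 (0.0504). The number of genes called was then 4 without AZD replicate 2, 3 without AZD replicate 3 and 4 without DMSO replicate 3. Of all genes 10.7%, 7.26% and 14.2% were called in these fits, against 22.2% with all libraries.

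With Ento alone 1 of the 10 genes passed, E2F3, where 3.66% of all genes fell and 4.66% rose. Of all genes called 44% fell, or 54.7% with scaling by library size alone. It was at 50.5, 55.5 and 50.7 CPM, above all DMSO libraries (log2 fold change 0.31, SE 0.08, adjusted p = 0.0268), and the call was lost without Ento replicate 1 (adjusted p = 0.136), 2 (0.127) or 3 (0.058) and without DMSO replicate 1 (0.0569) or 3 (0.0833). The 5 genes that fell with AZD had values on both sides of DMSO in the single pairs. E2F2 was 1.12 times the level of the same-numbered DMSO library in replicate 1, 0.484 times in replicate 2 and 0.844 times in replicate 3. E2F8 showed ratios of 1.21, 0.496 and 0.91, and E2F1 ratios of 1.21, 0.638 and 1.08. Only in replicate 2 were all 5 of these genes lower, with ratios of 0.669 for E2F7 and 0.83 for RBL1. The 95% confidence intervals of the log2 fold change with Ento reached from −0.91 to 0.06 for E2F2 and from −0.25 to 0.12 for RBL1. Without DMSO replicate 1 E2F2 passed (log2 fold change −0.73, adjusted p = 0.0423).

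**Figure D3:**
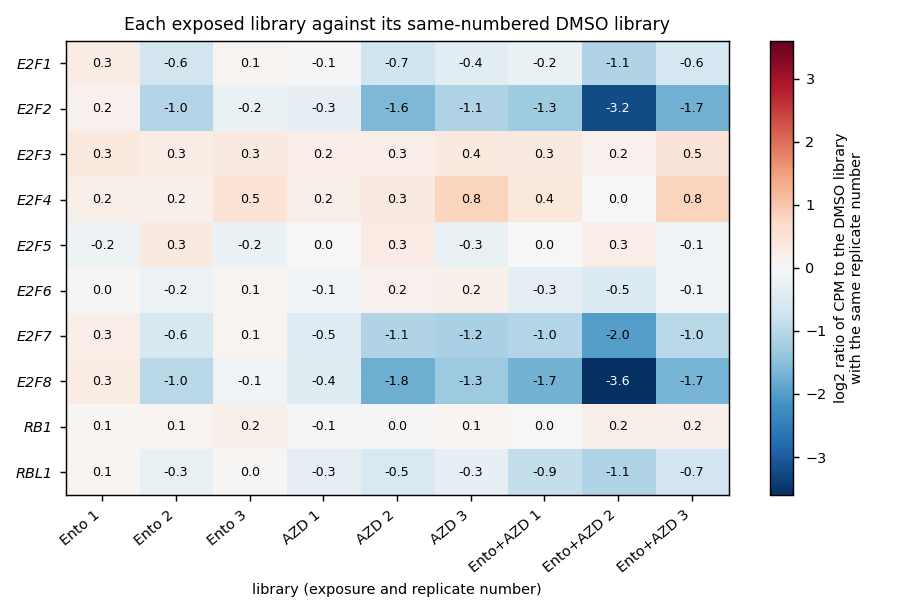
Log2 ratio of each exposed library to the DMSO library of the same number (colour and printed value) for the 10 genes (vertical axis) and 9 exposed libraries (horizontal axis). The blue cells of E2F1, E2F2, E2F7, E2F8 and RBL1 are deepest in the libraries numbered 2 within each exposure, except for E2F7 with AZD, where replicate 3 is.

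Ento+AZD was next compared with each single agent. Against Ento, the same 5 genes fell and none of the 10 rose, where 12.2% of all genes fell and 8.27% rose. The log2 fold changes were −1.63 for E2F2 (SE 0.24, adjusted p = 0.000661), −1.89 for E2F8 (SE 0.27, adjusted p = 0.000608), −1.24 for E2F7 (SE 0.19, adjusted p = 0.0009), −0.81 for RBL1 (SE 0.09, adjusted p = 0.000175) and −0.57 for E2F1 (SE 0.14, adjusted p = 0.00909). E2F1 was lost without Ento replicate 1 (0.0601) or 3 (0.0774). Against AZD, 3 genes fell, E2F2, E2F8 and RBL1, where 6.04% of all genes fell and 5.85% rose. RBL1 had no overlap between the AZD and Ento+AZD libraries (log2 fold change −0.48, SE 0.09, adjusted p = 0.0056). E2F2 changed by −1.01 (SE 0.24, adjusted p = 0.0163) and E2F8 by −1.01 (SE 0.28, adjusted p = 0.0329), and both groups overlapped. E2F2 was lost without AZD replicate 1 (0.0923) or Ento+AZD replicate 2 (0.0543), and E2F8 without AZD replicate 1 (0.169) or 2 (0.0758) or Ento+AZD replicate 1 (0.0983) or 2 (0.106). Without AZD replicate 1, or without Ento+AZD replicate 2, 1 of the 10 genes was called, where 3.44% and 6.1% of all genes were, against 11.9% with all libraries. E2F7 did not pass against AZD (interval of the log2 fold change −0.82 to 0.04), nor did E2F1 (−0.55 to 0.03). E2F6 changed by −0.41 (SE 0.13, adjusted p = 0.0513), with an adjusted p under 0.05 in 6 of 20 settings.

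Between the single agents, E2F7, E2F8 and RBL1 were lower with AZD than with Ento, where 8.99% of all genes were lower and 5.73% higher. The log2 differences were −0.85 (SE 0.19, adjusted p = 0.00779), −0.88 (SE 0.25, adjusted p = 0.0308) and −0.33 (SE 0.09, adjusted p = 0.0232). The groups overlapped for all 3, and no gene of the 10 was called without Ento replicate 1, without Ento replicate 3 or without AZD replicate 3, while leaving out AZD replicate 1 left 2 calls and AZD replicate 2 left 1. In this order these fits called 7.64%, 7.01%, 6.67%, 11.1% and 8.06% of all genes, against 14.7% with all libraries. DESeq2 gave E2F8 an adjusted p of 0.128. Without DMSO replicate 2, or without the 4 libraries numbered 2, 5 genes passed, where 17.1% and 10.4% of all genes did.

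The interaction term asked whether the change with both agents differed from the sum of the single changes on the log2 scale. None of the 10 genes passed, and none of all 16835 genes did with edgeR, while DESeq2 called none of the 10 and 8 of all genes. At an unadjusted p under 0.05 there were 3 of the 10, against 9.81% of all genes, namely E2F3, E2F6 and RBL1. RBL1 had the smallest p of these, with a term of −0.42 (SE 0.13, adjusted p = 0.444 in the edgeR test). The term of E2F2 was −0.58 with an interval from −1.28 to 0.12, and that of E2F8 −0.71 with an interval from −1.50 to 0.09. Without DMSO replicate 2 the adjusted p of E2F2 was 0.0428. With no filter on low counts the adjusted p was 0.00453 for E2F2 and 0.0181 for E2F8.

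The replicate number is a term of this model. In a fit without it, 3 genes stayed called for Ento+AZD against DMSO (E2F2, E2F8 and RBL1), 1 for Ento+AZD against Ento (RBL1), and none in the other comparisons. Of all genes that fit called 14.2% for Ento+AZD, 1.94% for AZD and 0.214% for Ento against DMSO. With the term 40%, 22.2% and 8.32% were called. Without the 4 libraries numbered 2 the log2 fold change of Ento+AZD against DMSO was −1.54 for E2F2, −1.70 for E2F8, −1.03 for E2F7, −0.45 for E2F1 and −0.78 for RBL1, and the number called was 7, as with all libraries. For AZD against DMSO it was 4, with adjusted p of 0.138 for E2F1, 0.0504 for RBL1 and 0.0662 for E2F3, and for Ento it was 0. Of all genes 31.6%, 15.1% and 3.58% were then called for Ento+AZD, AZD and Ento.

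The make-up of the E2F RNA was described as each class's share of the summed level of E2F1 to E2F8 in CPM per kb of exon, with no test. Activators made up 59.9 ± 4.53% with DMSO, 56.1 ± 8.51% with Ento, 50.5 ± 6.44% with AZD and 46.5 ± 4.60% with Ento+AZD (SD, n = 3 each). Repressors made up 33.1 ± 5.87%, 37.9 ± 10.5%, 45.8 ± 7.54% and 51.0 ± 5.84% in the same order. The atypical pair took 6.96 ± 1.36%, 6.05 ± 1.95%, 3.73 ± 1.13% and 2.49 ± 1.36%. In Ento+AZD replicate 1 activators and repressors were nearly level, at 48.9% and 48.6%. In replicate 3 activators held 49.4% against 46.8%, and in replicate 2 repressors held more, with 57.7% against 41.2%. Per kilobase of coding sequence repressors held the largest share in all 3. The summed level itself was 115 ± 11.3 CPM per kb with DMSO and 89.3 ± 14.2 with Ento+AZD, whose ranges did not overlap.

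**Figure D4:**
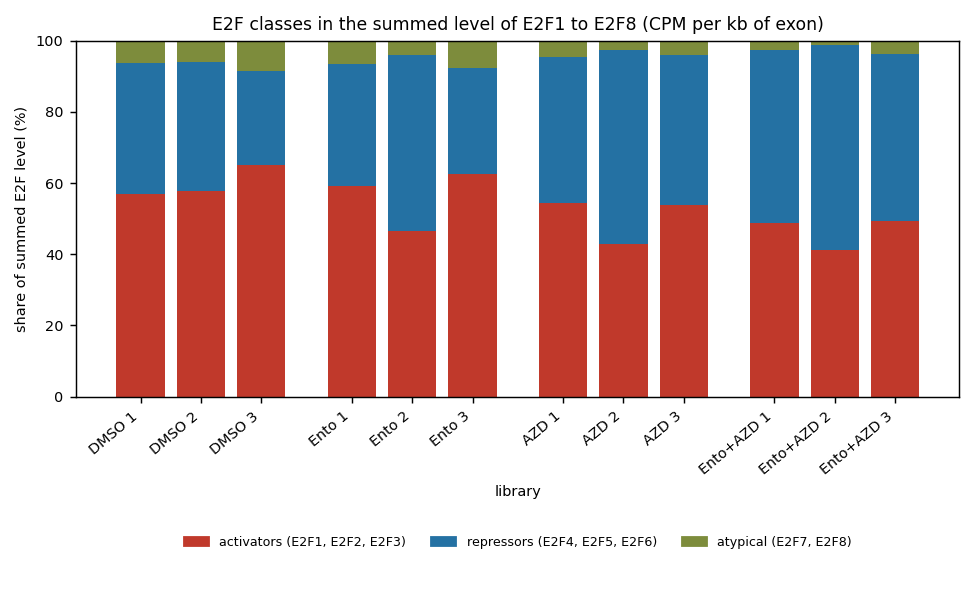
Share of each E2F class in the summed level of E2F1 to E2F8 (vertical axis, percent, CPM per kb of exon) in each of the 12 libraries (horizontal axis). The activator share ran from 56.9 to 65.1% with DMSO and from 41.2 to 49.4% with Ento+AZD, and the atypical share was lowest, at 1.13%, in Ento+AZD replicate 2.

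TFDP1, the main DP partner, stood at 440 ± 32.9 CPM with DMSO and 415 ± 86.3 CPM with Ento+AZD and did not pass (log2 fold change −0.11, SE 0.09, adjusted p = 0.395). TFDP2 fell by 0.59 on the log2 scale (SE 0.14, adjusted p = 0.00447), from 12.6 ± 3.56 to 8.47 ± 2.81 CPM. The third pocket protein RBL2 (p130), which binds E2F4 in resting cells, rose from 118 ± 8.44 to 139 ± 7.47 CPM (log2 fold change 0.24, SE 0.08, adjusted p = 0.0247), while its paralogue RBL1 fell. TFDP3 had at most 1 count and was not tested. With Ento+AZD 1 of the 3 tested genes fell and 1 rose, where 20.8% of all genes fell and 19.2% rose. These counts lie near those shares and are no result about the genes as a set. Without DMSO replicate 1 or 2, or Ento+AZD replicate 2 or 3, 1 of the 3 was called instead of 2. Without the replicate term none was. Of all genes 37.2%, 32.7%, 36.9%, 28.3% and 14.2% were called in these fits. None of the 3 passed with either single agent, though 1 did for AZD without AZD replicate 1. Of all genes 20.2% were called in that fit, against 22.2% with all libraries.

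The MuvB core binds the pocket protein RBL1 or RBL2 with E2F4 in resting cells, and MYBL2 and FOXM1 in cycling cells. Of its 5 subunits and these 2 factors, 5 of 7 fell with Ento+AZD, where 20.8% of all genes fell, none rose, and the median log2 fold change was −0.43, beside 0.01 over all genes. FOXM1, the driver of mitotic genes, fell from 162 ± 29.5 to 59.6 ± 30.4 CPM (log2 fold change −1.60, SE 0.20, adjusted p = 4.16e-05). LIN9 changed by −0.85 (adjusted p = 0.000355), LIN54 by −0.56 (0.000585), LIN52 by −0.43 (0.00913) and MYBL2 by −0.40 (0.0135), whereas RBBP4 (0.06) and LIN37 (−0.12) did not pass. Without the replicate term 1 of the 7 was called, where 14.2% of all genes were. With AZD 4 fell, these without MYBL2, where 12.7% of all genes fell, and with Ento none. The 4 became 2 without Ento replicate 1, DMSO replicate 2 or DMSO replicate 3, 1 without AZD replicate 3, and 0 without the replicate term. In this order these fits called 18.3%, 20.2%, 14.2%, 7.26% and 1.94% of all genes.

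Among 36 genes known as E2F targets of the G1/S transition, 35 fell with Ento+AZD, where 20.8% of all genes fell, none rose and SLBP did not pass, with a median log2 fold change of −1.26 beside 0.01 over all genes. This list and the others here were chosen with earlier results of these data known, so their counts are descriptions. The licensing factor CDT1 fell from 79.8 ± 38.8 to 17.4 ± 11.2 CPM, a log2 fold change of −2.34 (SE 0.22, adjusted p = 7.08e-06). PRIM1, a primase subunit, changed by −1.47, RRM1, a subunit of ribonucleotide reductase, by −1.42 and the checkpoint kinase CHEK1 by −1.67. With AZD 19 of the 36 fell (median −0.53), where 12.7% of all genes fell. With Ento 1 fell, CDT1 (median −0.20), where 3.66% of all genes fell. The list's median ratio to the same-numbered DMSO library was 0.16, −0.71 and 0.02 on the log2 scale for Ento replicates 1, 2 and 3, −0.05, −0.85 and −0.58 for AZD, and −0.74, −1.95 and −0.98 for Ento+AZD. Within each exposure the library numbered 2 thus lay lowest against its same-numbered DMSO library in these targets, as in E2F2 and E2F8. DMSO replicate 2 was not the lowest DMSO library for E2F2 or E2F8. Without the replicate term 11 of the 36 passed for Ento+AZD and 0 for AZD, where 14.2% and 1.94% of all genes did. The 19 called for AZD became 4 without AZD replicate 3, 10 without AZD replicate 2, 12 without DMSO replicate 2 and 33 without DMSO replicate 1. In this order these fits called 7.26%, 10.7%, 20.2% and 20.6% of all genes, against 22.2% with all libraries.

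All 16 genes of the G2/M set that MuvB, MYBL2 and FOXM1 are known to drive fell with Ento+AZD, with a median log2 fold change of −1.51, where 20.8% of all genes fell and the median over all was 0.01. This list too was chosen with earlier results of these data known. CDK1, the mitotic kinase, changed by −1.67 (SE 0.17, adjusted p = 1.37e-05), the centrosomal kinase NEK2 by −1.53, AURKA by −1.57 and the kinesin KIF23 by −1.50. With AZD 16 fell (median −0.82), where 12.7% of all genes fell, and with Ento none (median −0.37). Their median ratio was −1.03 in Ento replicate 2 against 0.03 and −0.06 in the other Ento replicates. Without the replicate term none of the 16 passed for Ento+AZD or for AZD, and without AZD replicate 3 the number called for AZD was 5. Of all genes 14.2%, 1.94% and 7.26% were called in these fits.

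**Figure D5:**
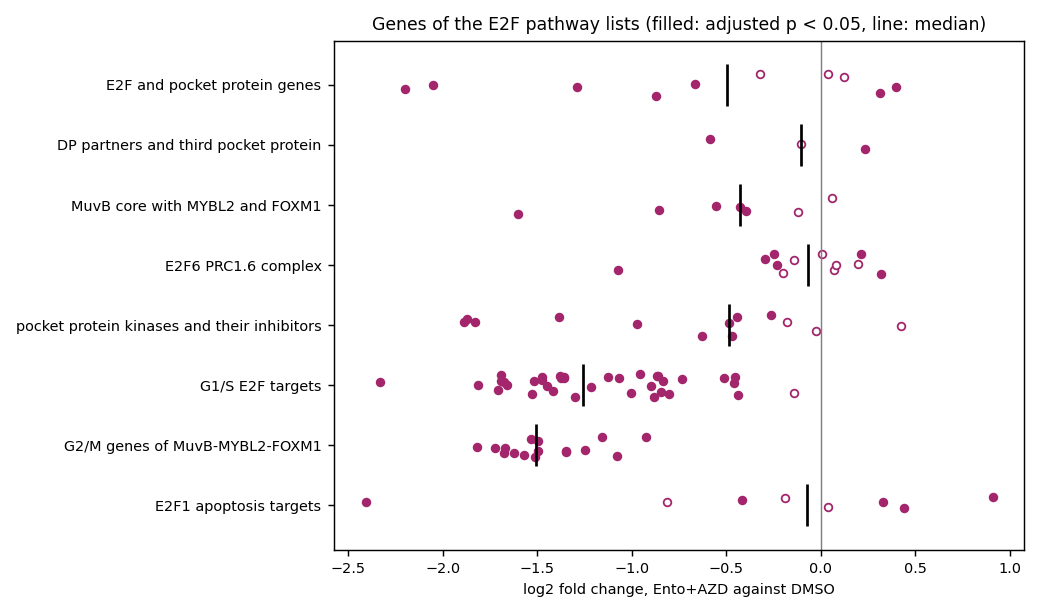
Log2 fold changes of Ento+AZD against DMSO (horizontal axis) for the 10 genes and 7 lists of the pathway (vertical axis), with a point per gene, filled where the adjusted p was under 0.05, and a line at each median. The G1/S and G2/M lists lie left of 0 as a whole, with medians of −1.26 and −1.51, and the 10 E2F and pocket protein genes are spread from −2.20 to 0.40.

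Of 14 kinases, cyclins and inhibitors that set the phosphorylation of pocket proteins, 13 were tested and 10 fell with Ento+AZD, with none rising and a median of −0.49, where 20.8% of all genes fell. Without the replicate term 6 were called, where 14.2% of all genes were. CDK2 changed by −1.39 (adjusted p = 1.64e-05), its partner cyclin A2 (CCNA2) by −1.87 (2.38e-05) and cyclin E2 (CCNE2) by −0.97 (0.00054). The inhibitor p27 (CDKN1B) also fell, from 11.2 ± 5.43 to 2.91 ± 0.232 CPM (log2 fold change −1.83, SE 0.28, adjusted p = 0.000188). It fell with each single agent too, with log2 fold changes of −1.78 for AZD (adjusted p = 0.000911) and −1.02 for Ento (0.0255). Both groups overlapped DMSO, which ran from 5.04 to 15.2 CPM, against 0.909 to 5.60 with AZD and 2.66 to 7.47 with Ento. The AZD libraries held 17 to 133 counts of it. CDKN2C, CDKN2D and CCND1 did not pass, and CCND1 had 22 counts at most. With AZD 7 of the 13 fell, where 12.7% of all genes fell. Without AZD replicate 2 or 3 it was 4, and without the replicate term 0, where 10.7%, 7.26% and 1.94% of all genes were called. With Ento, where 3.66% of all genes fell, 2 of the 13 did, CDKN1B and CDKN1A, which were singled out after their values were seen, as was the trio that did not pass. CDKN1A also fell with Ento+AZD (log2 fold change −1.89, SE 0.46, adjusted p = 0.00485) and did not pass with AZD. It was low, at 8 to 25 counts with Ento+AZD and 16 to 25 with Ento, against 31 to 168 with DMSO.

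E2F6 acts in PRC1.6, of whose 12 listed genes 4 fell and 2 rose with Ento+AZD, with a median of −0.07. Over all genes 20.8% fell and 19.2% rose, so the counts are no result about the complex. PCGF6, the subunit particular to PRC1.6, fell from 10.8 ± 1.69 to 5.25 ± 1.48 CPM (log2 fold change −1.07, SE 0.17, adjusted p = 0.000218). CBX3 (−0.24), RNF2 (−0.30) and EHMT2 (−0.23) fell by less, and MAX (0.21) and L3MBTL2 (0.32), named after their values were seen, rose. Without Ento+AZD replicate 1, 2 or 3 the number called was 2, 3 and 3, and without the replicate term it was 1. Of all genes 28.6%, 36.9%, 28.3% and 14.2% were called in these fits. Of 5 germline genes that E2F6 is known to keep silent, SMC1B, SLC25A31, TUBA3C and MAEL were too low to test, at 10 counts or fewer in every library. STAG3 was at 5.26 ± 0.563 CPM with DMSO and 5.99 ± 2.01 CPM with Ento+AZD and did not pass.

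E2F1 is also known to act on apoptosis genes. Of 8 such genes, 5 passed the test with Ento+AZD, 3 of them upward, where 20.8% of all genes fell and 19.2% rose, and the median log2 fold change of the list was −0.07. The BH3-only genes BCL2L11 and HRK rose by 0.44 (adjusted p = 0.000624) and 0.91 (0.0138) on the log2 scale, and PMAIP1, named after its value was seen, by 0.33 (0.021). HRK rose with Ento (log2 fold change 1.45, adjusted p = 0.00393) and fell with AZD (−1.09, adjusted p = 0.0259). It was low, at 18 to 23 counts in the AZD libraries. With AZD its ratios to the same-numbered DMSO libraries were 0.371, 1.07 and 0.326, and the groups overlapped. Without DMSO replicate 2, or without Ento+AZD replicate 2, 3 of the 8 were called for Ento+AZD, and without the replicate term 2 were. Of all genes 32.7%, 36.9% and 14.2% were called in these fits.

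Genes whose levels ran most like a member over the 12 libraries were listed by Pearson's r of log2 CPM, after the mean of each replicate number was taken out. For E2F1 these were KIF22 (r = 0.989), the DNA ligase gene LIG1 (0.983) and ZNF410 (0.979). For E2F8 they were CHEK1, the helicase gene MCM7 and the kinesin KIF18B, each with r = 0.992. For RB1 they were CBLB (0.952), SETBP1-DT (0.932) and GCNA (0.928). Among the 10 genes, E2F2 and E2F8 ran most alike (r = 0.992). The points share libraries and treatment groups with the genes set beside them, and the values are descriptions.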

How the data were processed

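Polyadenylated RNA was sequenced as single reads of 75 bases. The authors trimmed the reads, aligned them to GRCh38 and counted them with Rsubread, and deposited whole-number counts per gene symbol, without normalization. The strand setting, the treatment of reads that match several genes and the annotation release are not given in the sources used here. Their deposited table of log2 values (16226 genes) differed by at most 0.00396 from log2 CPM recomputed with a prior count of 2 for the 10 genes and was used only for this check. Columns of other samples numbered 0.

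Groups and replicate numbers came from the sample titles. The count analysis used edgeR 4.0.16 (R 4.3.3, limma 3.58.1), and DESeq2 1.42.0 served as another tool. Genes were filtered by filterByExpr with the groups given (minimum count 10, minimum total 15), and TMM set the scaling of libraries. One model held all 12 libraries, with a term per treatment group and per replicate number, after the paper's methods, which name treatment group and batch. That the replicate number is that batch is an assumption made here. Each contrast had a quasi-likelihood F-test, with p-values adjusted by Benjamini-Hochberg over all genes tested. The SE was taken as the size of the log2 fold change over the square root of F, and CPM were TMM-scaled. To see if the numbers paired libraries, their deviations from group means were correlated. Same-numbered libraries correlated at 0.213 to 0.703 (18 pairs) and others at −0.627 to 0.325 (36 pairs). Deviations cancel within each group, so positive values among same-numbered libraries bring negative ones among the others, which add no separate support. The numbers were taken to pair libraries on the values of the same-numbered ones. Libraries of a group differed by more than counting noise (chi-square per degree of freedom 8.21 to 48.5), and none was treated as a copy.

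Alternatives were other scalings, filters and tools, no replicate term, and each library left out. The tests were tried on simulated data. Exon and coding lengths and overlaps came from GENCODE v44 on GRCh38, promoters from RefSeq. The 10 genes and all lists were chosen with earlier results of these data known. The genes named were the 10, every gene of lists under 8 genes, the 4 of each longer list with the smallest adjusted p for Ento+AZD against DMSO, the 3 genes most like E2F1, E2F8 and RB1, and copies or overlapping genes. Values of 2 genes of the apoptosis list are not reported here.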

Additional observations from a re-analysis of the deposited data

How the results depend on the processing

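E2F2, E2F8 and RBL1 for Ento+AZD against DMSO, and RBL1 for Ento+AZD against Ento, were called in all 20 settings. With no replicate block, and so without the pairing by replicate number, the number of the 10 genes called was 0 for Ento and 0 for AZD against DMSO, 3 for Ento+AZD against DMSO, 1 against Ento, 0 against AZD and 0 for AZD against Ento. Over all genes that fit called 0.214%, 1.94%, 14.2%, 1.22%, 0.101% and 3.2% in the same order. The main fit called 8.32%, 22.2%, 40%, 20.4%, 11.9% and 14.7%. With no replicate block 0, 1, 1, 6, 11, 0 and 2 genes were called in the lists of DP partners, MuvB, PRC1.6, kinases, G1/S targets, G2/M genes and apoptosis targets for Ento+AZD against DMSO. Without the 4 libraries numbered 2, an alternative chosen after the data were seen, 0, 4 and 5 of the 10 were called for Ento and AZD against DMSO and for AZD against Ento. Of all genes 3.58%, 15.1% and 10.4% were called there. With no filter on low counts 3 of the 10 were called for Ento against DMSO, 5 for AZD against Ento and 2 for the interaction, where 7.43%, 10.1% and 0.9% of all genes were. The cause was not tested. Leaving out single libraries gave 0 to 1 for Ento, 3 to 7 for AZD and 5 to 8 for Ento+AZD against DMSO, 4 to 5 against Ento, 1 to 4 against AZD, 0 to 5 for AZD against Ento and 0 to 1 for the interaction. The share of all genes called then ran from 2.48 to 9.8% for Ento, 7.26 to 24% for AZD and 28.3 to 39.2% for Ento+AZD against DMSO. For Ento+AZD it ran from 8.13 to 23.7% against Ento and from 3.44 to 15.2% against AZD. For AZD against Ento it ran from 6.67 to 17.6%, and for the interaction from 0 to 1.23%. Several values against DMSO that were not called changed sign. Without the 4 libraries numbered 2 the log2 fold change with Ento was 0.18 for E2F1, 0.061 for E2F6, 0.17 for E2F7, 0.048 for E2F8 and 0.0295 for RBL1, and with no replicate block it was 0.016 for E2F7. That of E2F5 with AZD was −0.0032 with RLE scaling, −0.058 by library size alone, −0.0028 with no filter, −0.005 at a minimum count of 30, −0.0031 with DESeq2 and −0.14 without the 4 libraries, and with Ento+AZD it was −0.013 by library size alone and −0.064 without the 4. Over single libraries left out, it ran with Ento from −0.27 to 0.13 for E2F1, −0.18 to 0.056 for E2F5, −0.096 to 0.06 for E2F6, −0.22 to 0.15 for E2F7, −0.59 to 0.091 for E2F8 and −0.13 to 0.032 for RBL1, with AZD from −0.13 to 0.11 for E2F5, −0.014 to 0.18 for E2F6 and −0.051 to 0.022 for RB1, and with Ento+AZD from −0.092 to 0.15 for E2F5.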
